A study of Mus musculus with 4 samples.

Results

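The 49 genes described here encode the enzymes and transporters of glucose breakdown, the pentose phosphate pathway and the tricarboxylic acid (TCA) cycle, together with genes of oxygen sensing. They were taken by name from a fixed list, and all 49 had a row among the 23235 genes of the tables. By role they were 4 glucose and lactate transporters, 18 glycolytic enzymes, 2 enzymes that set the level of a glycolytic activator, 3 pyruvate dehydrogenase genes, 6 pentose phosphate enzymes, 11 TCA cycle genes and 5 oxygen sensing genes.

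Bulk RNA was sequenced from an acute myeloid leukaemia of genotype NRASG12V/Mll-AF9, injected into the tail vein of SCID/Beige mice, a host strain with immune defects, and grown for 20 days to a white cell count above 100000 per microlitre. The on library came from leukaemia expressing NRASG12V, and the off libraries were taken 48 h, 72 h and 96 h after doxycycline, started by injection and kept up through the drinking water, had switched NRASG12V off. Every library thus carried the Mll-AF9 fusion, and each of the 4 groups was 1 library. No library received doxycycline with NRASG12V still on, so the drug, elapsed time and the loss of the oncogene cannot be told apart. The labels name neither the tissue harvested nor the age of the mice, nor whether each library was a separate mouse.

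Glycolysis splits glucose into pyruvate in a chain of cytosolic reactions, and most steps can be run by more than 1 isozyme, each the product of its own gene and favoured in different cells. Pyruvate is then either reduced to lactate and exported, or taken into mitochondria, where pyruvate dehydrogenase and the TCA cycle oxidise it; the pentose phosphate pathway branches off near the top and makes NADPH and ribose. The transcription factor subunit Hif1a is marked for destruction by oxygen-dependent prolyl hydroxylases of the Egln family, and when stable it raises many glycolytic genes. Growth factor and Ras signalling are also known to raise glucose uptake and glycolysis in dividing cells.

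The values are FPKM, fragment counts divided by transcript length and by the size of the library, so levels can be set side by side between genes. Changes are log2((off FPKM + 1)/(on FPKM + 1)), which understates the change of genes with low levels. A gene was counted as higher or lower at a time when it differed at least 2-fold on this scale, among genes reaching 1 FPKM in either library. All 49 genes reached 1 FPKM in the on library and in every off library. With 1 library per time these counts have no replicate check. The 3 off libraries were also tested together against the on library with limma across 11958 genes, and "fell" and "rose" are used below only of genes that passed (Benjamini-Hochberg adjusted p under 0.05). The error of that test is the spread between the 3 off times, and the single on library is taken to vary as they do. Its p-values therefore reflect the spread among these libraries alone, which may be technical. The comparisons at the 3 times share the on library. Adjusted p given below without 1 off library rest on the remaining off libraries alone, so a lost call cannot be assigned to the library left out.

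Markers of other cell types moved with the groups. Markers of red cell precursors were at least 2-fold higher in 19 of 19 cases at all 3 times, and their summed FPKM went from 7665 in the on library to 24259, 36338 and 39124 at 48 h, 72 h and 96 h. Pan-leukocyte markers went the other way, with summed FPKM of 4789, 3419, 2759 and 2120 and medians of -0.50, -0.82 and -1.13 over 16 genes, of which 0, 2 and 11 were at least 2-fold lower. Of the myeloid leukaemia markers, Mpo and Elane were at 990 and 945 FPKM in the on library. Hoxa9 and Meis1 were at 4.11 and 4.55 FPKM there. By limma, 3 of the 10 listed fell, 1 rose and 6 did not pass. Those that fell were Mpo, with 119.9 to 134 FPKM in the off libraries, Elane and Cebpa. Csf3r, the receptor for granulocyte colony-stimulating factor, rose from 12.8 FPKM to 41.9, 44.7 and 27.8 FPKM. Among those that did not pass, Hoxa9, Itgam and Fcgr3 were lower in every off library. Meis1 had 5.81, 4.77 and 4.40 FPKM at 48 h, 72 h and 96 h. Kit changed from 9.53 FPKM to 10.5, 10.7 and 10.5 FPKM, and Hoxa10 from 0.940 FPKM to 0.836, 0.944 and 1.34 FPKM. Macrophage markers summed to 434 to 529 FPKM and endothelial and stromal markers to 179 to 328 FPKM. The 7 lymphoid markers summed to 6.17 FPKM in the on library and 12.2 to 18.4 FPKM in the off libraries, and 2 of the 3 that could be tested rose by limma. These were Cd3d, from 3.79 FPKM to 13.9, 11.3 and 7.42 FPKM, and Ncr1, from 0.715 FPKM to 2.77, 3.24 and 3.20 FPKM, while Cd3e was at most 0.141 FPKM. Liver markers were at most 0.0618 FPKM in each library, with Alb at 0 in all 4. In bulk RNA, fewer cells of a type and less RNA per cell cannot be told apart, and the part of these shifts in the results below was not tested.

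Across the 49 genes, 12 were at least 2-fold lower and 3 higher at 48 h, 15 lower and 4 higher at 72 h, and 16 lower and 3 higher at 96 h. Over all genes counted, the shares at least 2-fold lower were 4.85%, 5.76% and 8.16% at the 3 times, and the shares at least 2-fold higher 5.0%, 6.61% and 7.39%. At all 3 times 11 of the 49 genes were at least 2-fold lower, beside 3.65% of all genes, and 3 were at least 2-fold higher, beside 3.78%. The off libraries all lay below the on library for 35 genes, against 47.3% of all genes, and all above it for 10, against 32.2%. Only Pfkfb4, Pdk1, Cs and Sdha lay on both sides. By limma, 18 of the 49 fell, 5 rose and 26 did not pass, where 15.2% of all genes fell and 11.8% rose. With the median change set to 0, 15 of the 49 fell and 5 rose, and the shares of all genes were 10.4% and 14.4%, so that more genes rose than fell. Removing the globin genes and rescaling lowered the count of genes at least 2-fold lower at 48 h from 12 to 7, that at all 3 times from 11 to 7, and that of genes below the on library at all 3 times from 35 to 27. With the median change set to 0, 9 genes were at least 2-fold lower and 32 below the on library at all 3 times.

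**Figure D1:**
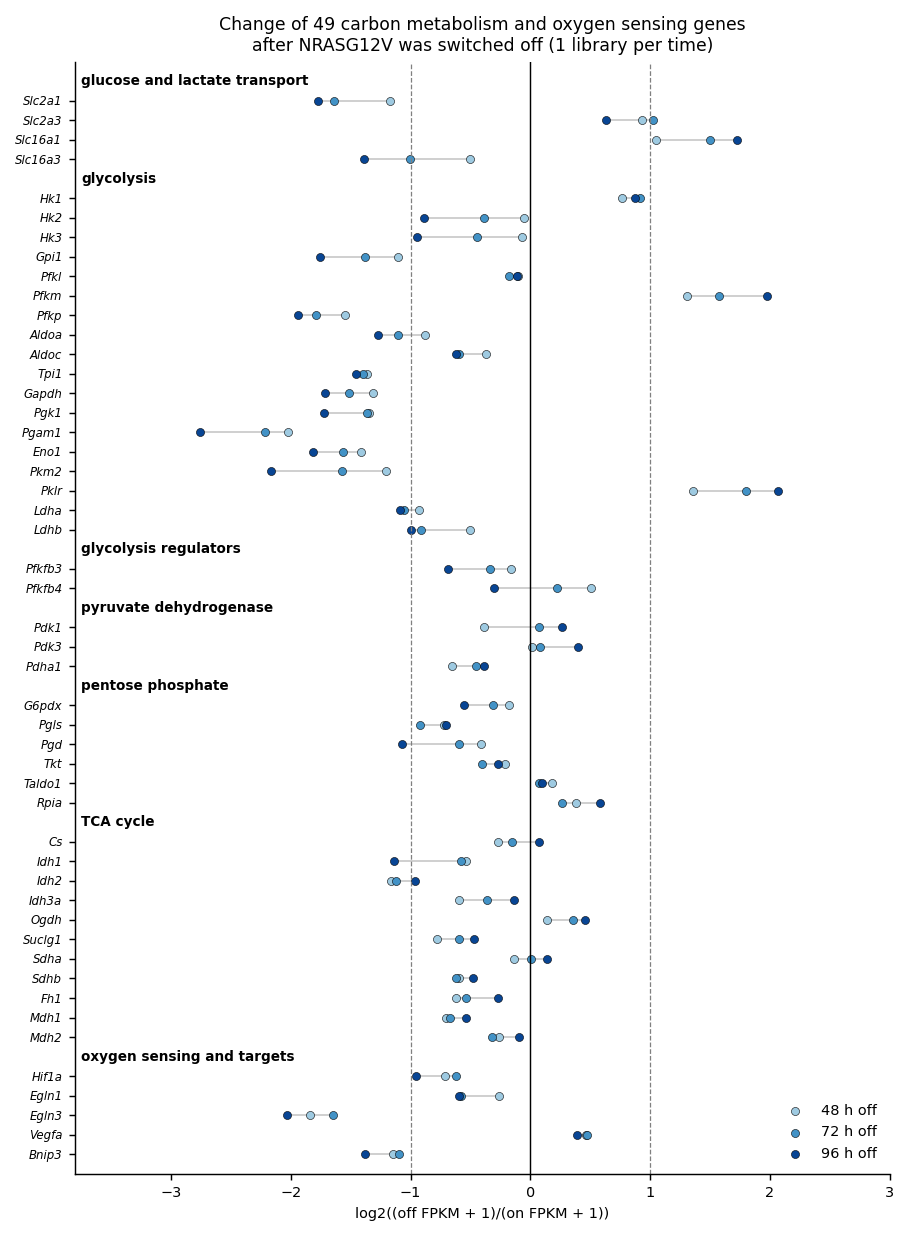
Change of each of the 49 genes at 48 h, 72 h and 96 h (points, 1 library each) as log2((off FPKM + 1)/(on FPKM + 1)), grouped by role; the solid line is no change and the dashed lines are 2-fold. Of the 18 glycolytic enzymes, 8 lie at or left of the lower dashed line at 48 h and 10 at 72 h and at 96 h, with Pfkm and Pklr at the far right, while TCA cycle and pentose phosphate genes gather nearer to 0.

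The groups differed in where they lay and in how they moved with time. The 18 glycolytic enzymes had medians of -0.90, -1.08 and -1.18 at 48 h, 72 h and 96 h, and 8, 10 and 10 of them were at least 2-fold lower. The 11 TCA cycle genes had medians of -0.59, -0.54 and -0.27, with 1 at least 2-fold lower at each time, and the 6 pentose phosphate genes -0.20, -0.36 and -0.41, with 0, 0 and 1. The 5 oxygen sensing genes had medians of -0.71, -0.62 and -0.96, with 2 at least 2-fold lower at each time. All genes counted had medians of -0.14, -0.07 and -0.06. Between 48 h and 96 h, 15 of 18 glycolytic enzymes moved further down, beside 40.4% of all genes, whereas 10 of 11 TCA cycle genes moved up, beside 59.5% of all genes. Those counts of 15 and 10 were the same with the median change set to 0 and with the globin genes removed, an alternative chosen after seeing the data. The pan-leukocyte medians above also moved down with time.

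**Figure D2:**
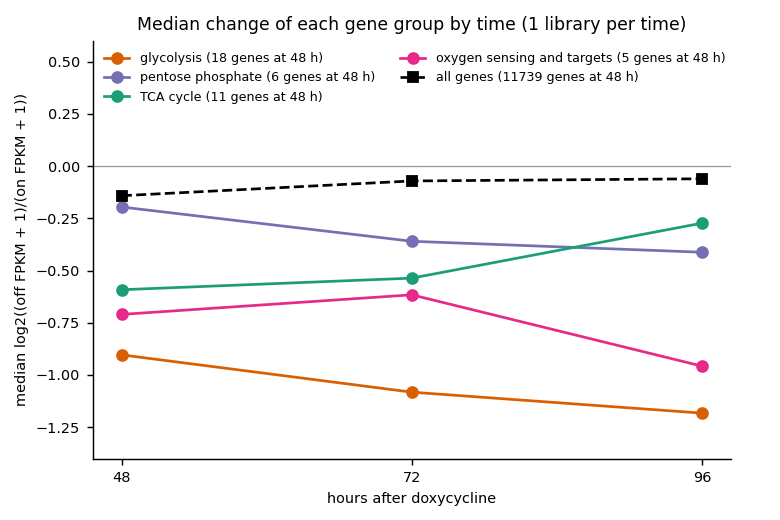
Median log2 change of each gene group (lines) and of all genes counted (dashed line with squares) at 48 h, 72 h and 96 h, with 1 library per time. The glycolysis line goes from -0.90 to -1.18, the TCA cycle line climbs from -0.59 to -0.27, and the line of all genes stays between -0.14 and -0.06.

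The promoters of the 49 genes were looked up in RefSeq (GRCm38.p6, a later build than the mm9 used for the files). The table matched 47 of the 49 genes, Pkm2 through its current symbol; the 250 bases before the most upstream start were searched on both strands for ACGTG and GCGTG, the core letters of the element that Hif1a binds. Printed as examples are 4 genes that fell by limma, the phosphoglycerate mutase Pgam1 (chr19:41911621-41911870, plus strand), the phosphoglycerate kinase Pgk1 (chrX:106186850-106187099, plus strand), the oxygen sensor Egln3 (chr12:54203875-54204124, minus strand) and the lactate dehydrogenase Ldha (chr7:46845554-46845803, plus strand), each 5′ to 3′ on the gene's own strand with the core letters in capitals.
Pgam1: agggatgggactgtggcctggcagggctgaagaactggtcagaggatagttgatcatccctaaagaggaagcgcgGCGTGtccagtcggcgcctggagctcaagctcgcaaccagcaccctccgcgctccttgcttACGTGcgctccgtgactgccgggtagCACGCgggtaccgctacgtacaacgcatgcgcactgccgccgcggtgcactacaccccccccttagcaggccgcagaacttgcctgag
Pgk1: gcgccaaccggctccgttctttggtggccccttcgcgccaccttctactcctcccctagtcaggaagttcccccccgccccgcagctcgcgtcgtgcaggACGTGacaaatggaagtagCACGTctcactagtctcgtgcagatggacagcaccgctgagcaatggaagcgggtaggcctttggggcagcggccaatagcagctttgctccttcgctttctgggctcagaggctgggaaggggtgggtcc
Egln3: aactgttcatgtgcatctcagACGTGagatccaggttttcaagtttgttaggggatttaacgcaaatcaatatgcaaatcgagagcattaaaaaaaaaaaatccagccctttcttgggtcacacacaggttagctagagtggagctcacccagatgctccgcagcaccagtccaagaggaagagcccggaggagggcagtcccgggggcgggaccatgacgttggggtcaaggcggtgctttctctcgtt
Ldha: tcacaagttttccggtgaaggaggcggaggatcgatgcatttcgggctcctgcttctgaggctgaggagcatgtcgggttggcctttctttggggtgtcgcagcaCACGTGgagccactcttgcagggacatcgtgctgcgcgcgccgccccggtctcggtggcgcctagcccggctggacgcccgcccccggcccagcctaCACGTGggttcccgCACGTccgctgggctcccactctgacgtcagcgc

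These windows hold 3 matches for Pgam1, 2 for Pgk1, 1 for Egln3 and 5 for Ldha, where CACGTG, also the letters of the E-box read by Myc family factors, is matched on both strands and counts double. A core match was found in 38 of the 47 windows (80.9%), in 43.9% of the windows of 17492 protein-coding genes and in 38.6% of those of all 27025 genes in the table. The genes at least 2-fold lower at all 3 times had it in 8 of 11 windows (72.7%) and the other members in 30 of 36 (83.3%). Among the glycolytic enzymes 12 of 18 windows (66.7%) had it, and among the TCA cycle genes 8 of 10 (80%). CACGTG was in 5 of the 47 windows (10.6%), against 6.65% of protein-coding genes. Such short matches describe the letters in the window, not binding. Both core forms contain CG, and the comparison genes were not matched for expression or for base composition. Whether the higher share in the 47 windows goes beyond those properties was not tested.

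Among the transporters, 1 of each pair was lower and the other higher in every off library. Slc2a1, which encodes the ubiquitous glucose transporter GLUT1, had 15.6 FPKM with NRASG12V on, then 6.39 FPKM at 48 h, 4.31 FPKM at 72 h and 3.86 FPKM at 96 h. Each off library was below the one before, and the gene fell by 1.53 ± 0.31 on the log2 scale (mean ± SD, n = 3 off libraries; limma, Benjamini-Hochberg adjusted p = 0.0046). Slc2a3, encoding the high-affinity transporter GLUT3, went from 19.7 FPKM to 38.6, 41.1 and 31.2 FPKM and rose by 0.86 ± 0.20 (limma adjusted p = 0.021; 0.085 without the 72 h library). Of the summed FPKM of both genes, Slc2a1 made up 44.2% in the on library and 14.2%, 9.5% and 11% in the off libraries. The lactate transporters took a similarly crossed course. Slc16a1 (MCT1) was at 21.8 FPKM on and at 46.0, 63.4 and 74.4 FPKM off and rose by 1.42 ± 0.35 (limma adjusted p = 0.0080). Slc16a3 (MCT4, known for lactate export from strongly glycolytic cells) was at 40.7 FPKM on and at 28.4, 19.8 and 14.9 FPKM off. Its mean change of -0.96 ± 0.44 missed the threshold narrowly (limma adjusted p = 0.050009). Slc16a1 supplied 34.9% of the summed FPKM of the pair in the on library and 83.3% at 96 h.

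Hexokinase, which traps glucose in the cell, and phosphofructokinase, the main control point of glycolysis, also shifted between isozymes, while their summed levels stayed nearer to the on library. Hk1, the broadly expressed hexokinase, went from 55.3 FPKM to 94.5, 104.9 and 102.3 FPKM and rose by 0.85 ± 0.08 (limma adjusted p = 0.016; 0.094 without the 72 h library). Hk3, prominent in myeloid cells, held at 61.9 FPKM on and 59.0 FPKM at 48 h and then stood at 45.1 and 31.6 FPKM. Hk2, the inducible form, followed the same course from 12.9 FPKM to 12.4, 9.63 and 6.52 FPKM. Neither passed limma (adjusted p = 0.27 for Hk3 and 0.29 for Hk2); without the 48 h library these were 0.044 and 0.061. The 3 genes together summed to 130.1 FPKM on and to 166, 159.6 and 140.4 FPKM off.

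Among phosphofructokinases, Pfkp, the platelet form, was the most abundant in the on library and the least abundant at every off time. It went from 49.6 FPKM to 16.3, 13.7 and 12.2 FPKM and fell by 1.76 ± 0.19 (limma, Benjamini-Hochberg adjusted p = 0.0017). Pfkm, the muscle form, which red cells also use, went from 9.70 FPKM to 25.5, 31.0 and 41.2 FPKM and rose by 1.62 ± 0.34 (limma adjusted p = 0.0043). Pfkl, the liver form, stayed between 25.3 and 28.7 FPKM in all 4 libraries. The share of Pfkp in the summed FPKM of the 3 genes went from 56.4% to 15.3% at 96 h and that of Pfkm from 11% to 51.6%. The sum itself was 88.0 FPKM on and 68.5, 69.9 and 79.9 FPKM off.

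Pyruvate kinase, the last step before pyruvate, showed the same exchange at higher levels. Pkm2, the gene of the muscle and proliferating cell forms, whose splice forms are not separated in these tables, was at 749 FPKM on and at 325, 251 and 166 FPKM off. It fell by 1.65 ± 0.49 (limma adjusted p = 0.011; 0.053 without a filter on low values). Pklr, the gene of the red cell and liver form, went from 13.9 FPKM to 37.1, 51.0 and 61.4 FPKM and rose by 1.74 ± 0.36 (limma adjusted p = 0.0039). Its share of the summed FPKM of the pair went from 1.82% to 10.2%, 16.9% and 27.0%. Unlike the hexokinase and phosphofructokinase sums, that of pyruvate kinase was 3.36-fold lower at 96 h. A share within 1 library does not depend on how libraries are scaled to each other. The red cell precursor markers given above moved with Pfkm, Pklr, Hk1 and Slc16a1 in the same libraries, and their part in these rises was not tested.

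The promoter of Pklr, the gene with the largest rise of the 49, is printed for comparison (chr3:89135892-89136141, plus strand, GRCm38.p6, RefSeq). It holds no ACGTG or GCGTG on either strand, and neither does that of Hk1, which also rose. Pfkm and Slc16a1 rose too and have 2 and 4 core matches. Of the 18 genes that fell, Gpi1, Aldoa, Tpi1 and Pkm2 have none. Cs, Idh1 and Vegfa, which did not pass, have none either, and 80.9% of all 47 windows have a match. Capitals mark AGATAA, the letters bound by GATA factors such as the red cell regulator Gata1, a motif added after the values were seen.
Pklr: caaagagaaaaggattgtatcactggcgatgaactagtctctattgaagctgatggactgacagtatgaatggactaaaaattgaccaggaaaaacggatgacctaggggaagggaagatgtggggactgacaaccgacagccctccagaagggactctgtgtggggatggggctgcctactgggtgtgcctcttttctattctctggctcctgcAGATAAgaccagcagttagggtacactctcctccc

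AGATAA or its reverse complement TTATCT was found in 3 of the 47 windows (Pklr, Pfkm and Vegfa; 6.38%), against 9.10% of protein-coding genes. In Pklr it lies 35 to 30 bases before the start. Pfkm and Pklr are among the 3 genes with the letters, but Hk1, Slc16a1 and Slc2a3, which also rose, have none in these windows or, for Slc2a3, no entry in the table. Any part of these letters in the rises was not tested.

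**Figure D3:**
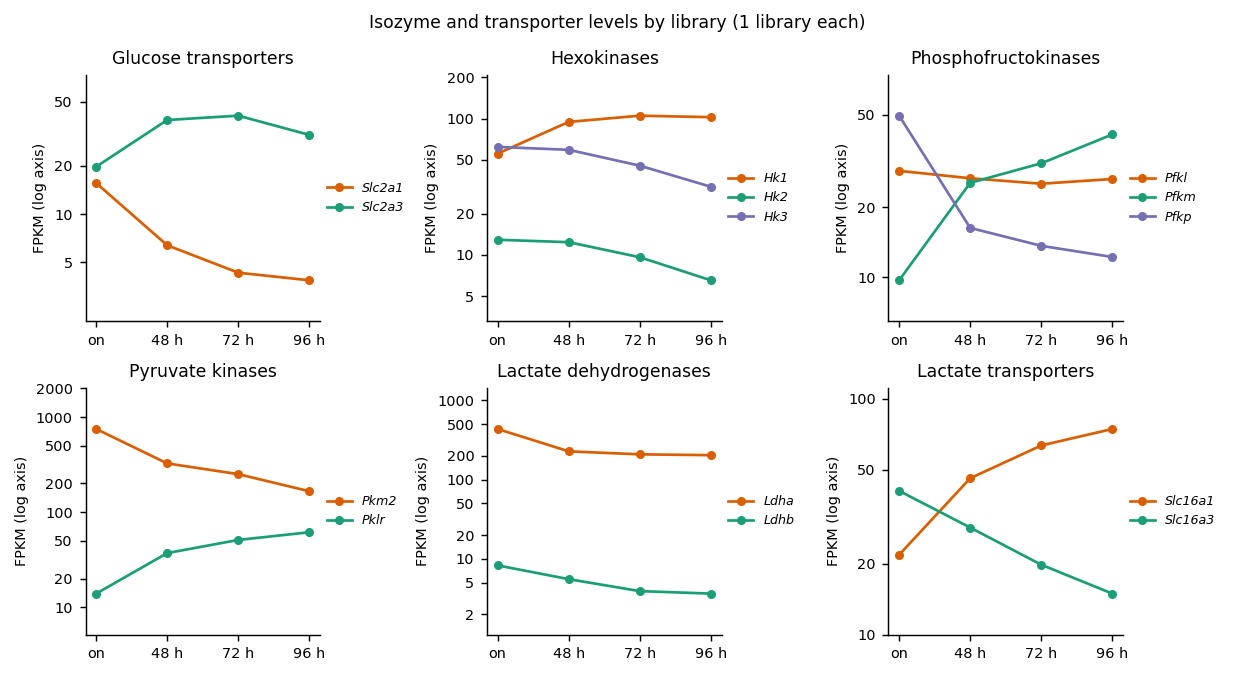
FPKM (log axes) of isozymes and transporters in the on library and the off libraries at 48 h, 72 h and 96 h, 1 library each. Slc2a1 and Slc2a3, Pfkp and Pfkm, and Slc16a3 and Slc16a1 take opposite courses, Pkm2 and Pklr draw nearer to each other, and Ldha and Ldhb run in parallel.

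Between and after these control steps, the enzymes that have 1 dominant gene fell as a block. Gpi1, the isomerase of glucose 6-phosphate, went from 394 FPKM to 183, 151 and 116 FPKM and fell by 1.41 ± 0.32 (limma, Benjamini-Hochberg adjusted p = 0.0084). Aldoa, which cleaves the sugar, was at 464 FPKM on and at 253, 215 and 191 FPKM off and fell by 1.09 ± 0.20 (limma adjusted p = 0.012). Its brain-type relative Aldoc never passed 3.37 FPKM. Tpi1, which interconverts the triose phosphates, had the flattest course of the block, from 246 FPKM to 95.2, 92.9 and 88.9 FPKM, and fell by 1.41 ± 0.05 (limma adjusted p = 0.0025). Gapdh was the most abundant of the 49 genes in all 4 libraries, at 1424 FPKM on and 573, 497 and 434 FPKM off, and fell by 1.51 ± 0.20 (limma adjusted p = 0.0039).

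Pgk1, the first step that yields ATP, went from 303 FPKM to 119, 117 and 91.0 FPKM and fell by 1.48 ± 0.21 (limma adjusted p = 0.0038). Pgam1, which moves the phosphate along the sugar acid, had the largest fall of the 49 genes, from 321 FPKM to 78.2, 68.6 and 46.8 FPKM, or 4.11-fold, 4.69-fold and 6.87-fold lower by FPKM. On the log2 scale it fell by 2.33 ± 0.38 (limma adjusted p = 0.0018). Eno1, the ubiquitous enolase, was at 382 FPKM on and at 143, 129 and 108 FPKM off, and it fell to levels 2.67-fold, 2.97-fold and 3.53-fold lower (limma adjusted p = 0.0028). Ldha, which reduces pyruvate to lactate, fell less, by 1.03 ± 0.08, from 433 FPKM to 227, 208 and 203 FPKM (limma adjusted p = 0.0098). Ldhb, the heart form, fell by 0.80 ± 0.26 from 8.30 FPKM (limma adjusted p = 0.034; 0.058 without the 72 h library), and Ldha made up 97.6% to 98.2% of the pair in every library. In each of Gpi1, Pfkp, Aldoa, Tpi1, Gapdh, Pgk1, Pgam1, Eno1, Pkm2 and Ldha, the 3 off libraries lay in the order of their times, with 96 h lowest. Several of these genes, Gapdh, Pgk1, Eno1, Pgam1 and Ldha among them, have near-identical processed copies in the mouse genome, so their levels are uncertain where reads were divided between copies.

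**Figure D4:**
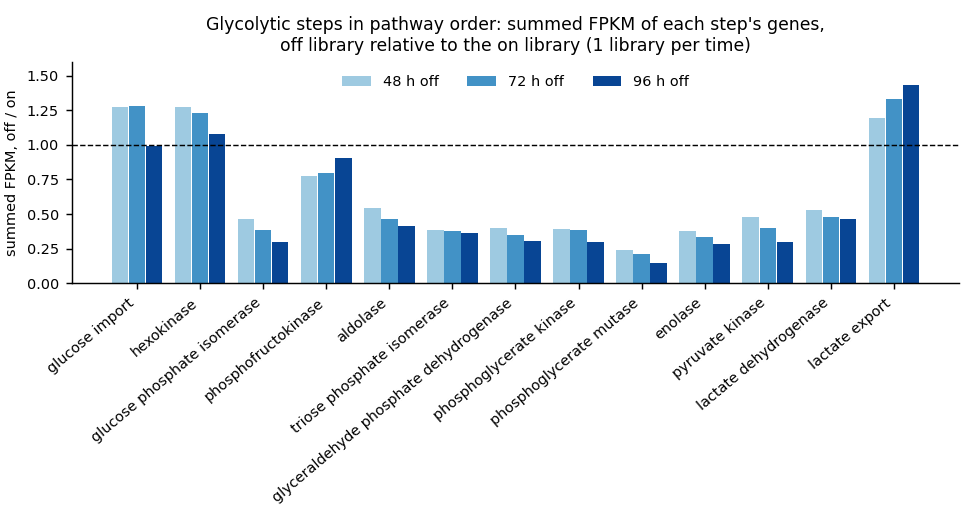
Summed FPKM of the listed genes of each glycolytic step, in pathway order, in the off libraries at 48 h, 72 h and 96 h as a ratio to the on library (dashed line at 1; bars start at 0; 1 library per time). Glucose import, hexokinase, phosphofructokinase and lactate export stay between 0.778 and 1.43, while the other steps lie between 0.146 and 0.545.

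The enzymes that set the level of fructose 2,6-bisphosphate, an activator of phosphofructokinase, did not pass limma. Pfkfb3 went from 14.8 FPKM to 13.2, 11.6 and 8.85 FPKM (adjusted p = 0.23), and Pfkfb4 from 10.7 FPKM to 15.5, 12.6 and 8.46 FPKM (adjusted p = 0.74), so that Pfkfb4 was above the on library at 48 h and below it at 96 h. The 3 genes at the entry to mitochondria did not pass either. Pdha1, the catalytic subunit of pyruvate dehydrogenase, was at 41.8 FPKM on and at 26.2, 30.2 and 31.6 FPKM off (adjusted p = 0.092). Pdk1, a kinase that switches this complex off and a known target of Hif1a, was at 7.18 FPKM on and at 5.28, 7.59 and 8.81 FPKM off. Pdk3, another such kinase, went from 14.8 FPKM to 15.0, 15.6 and 19.8 FPKM.

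Of the 6 pentose phosphate enzymes, 1 fell and none rose by limma, where 15.2% of all genes fell, so the share that fell was near that of all genes. Pgls, the lactonase of the oxidative branch, fell by 0.78 ± 0.12, from 71.0 FPKM to 42.7, 36.9 and 43.2 FPKM (adjusted p = 0.022; 0.148 without the 72 h library). The dehydrogenases on either side of it, which make the NADPH, stood lower with each time. G6pdx went from 89.0 FPKM to 78.5, 71.4 and 60.3 FPKM (adjusted p = 0.26) and Pgd from 231 FPKM to 173, 152 and 110 FPKM (adjusted p = 0.094). In the non-oxidative branch, which exchanges sugars with glycolysis, Taldo1 stayed between 347 and 394 FPKM and Tkt between 163 and 216 FPKM, and Rpia was above its on level of 48.0 FPKM in all off libraries, at 62.8, 57.8 and 72.2 FPKM. At 96 h, Taldo1 and Pkm2, at 372 and 166 FPKM, had exchanged the order they had in the on library, at 347 and 749 FPKM.

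Of the 11 TCA cycle genes, 2 fell and none rose by limma, where 15.2% of all genes fell, so the share that fell was near that of all genes. Idh2, the mitochondrial NADP-dependent isocitrate dehydrogenase, was the lowest relative to the on library at 48 h, at 24.9 FPKM against 56.9 FPKM on. It then stood at 25.6 and 28.7 FPKM, and fell by 1.08 ± 0.11 (limma, Benjamini-Hochberg adjusted p = 0.0060). Mdh1, the cytosolic malate dehydrogenase, fell by 0.64 ± 0.09, from 54.3 FPKM to 33.0, 33.7 and 37.1 FPKM (adjusted p = 0.039; 0.214 without the 72 h library). Suclg1, Sdhb, Fh1 and Idh3a showed the same course, with off values below the on library and highest at 96 h; Idh3a, a subunit of the NAD-dependent isocitrate dehydrogenase, for one, went from 34.2 FPKM to 22.3, 26.3 and 31.1 FPKM. Citrate synthase, Cs, was at 86.5 FPKM on and at 71.5, 77.7 and 91.1 FPKM off, and Sdha, the catalytic subunit of succinate dehydrogenase, at 78.1 FPKM on and 71.0, 78.5 and 86.1 FPKM off. Mdh2, the mitochondrial malate dehydrogenase, kept 170.0 to 198 FPKM against 212 FPKM on, and Ogdh, of the oxoglutarate dehydrogenase complex, was above its on level of 34.1 FPKM at 37.7, 44.0 and 47.3 FPKM.

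The exception in the TCA list was Idh1, the NADP-dependent isocitrate dehydrogenase that, like Mdh1, is cytosolic and does not sit in the mitochondrial cycle. It went from 26.8 FPKM to 18.2, 17.6 and 11.6 FPKM and was the only 1 of the 11 to be lower at 96 h than at 48 h (limma adjusted p = 0.063; 0.024 without the 48 h library, 0.048 without 72 h and 0.040 without 96 h).

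Of the oxygen sensing genes, 3 of 5 fell by limma, beside 15.2% of all genes. Egln3, a prolyl hydroxylase that marks Hif1a for destruction and is itself a Hif target, went from 10.2 FPKM to 2.16, 2.59 and 1.74 FPKM and fell by 1.84 ± 0.19 (limma, Benjamini-Hochberg adjusted p = 0.0014). Bnip3, a mitophagy receptor induced by hypoxia, went from 10.6 FPKM to 4.23, 4.38 and 3.42 FPKM and fell by 1.21 ± 0.15 (adjusted p = 0.0042). Hif1a itself went from 15.3 FPKM to 8.99, 9.64 and 7.39 FPKM and fell by 0.76 ± 0.18 (adjusted p = 0.027; 0.063 without a filter on low values and 0.054 with the median change set to 0). RNA gives no measure of Hif1a protein, which is set mainly by its stability. Egln1, the main oxygen sensor of the family, was at 13.7 FPKM on and at 11.3, 8.84 and 8.71 FPKM off (adjusted p = 0.115). Vegfa, the vascular growth factor and a textbook Hif target, lay above its on level of 9.59 FPKM in every off library, at 13.6, 13.7 and 12.8 FPKM, but did not pass limma (adjusted p = 0.097).

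Other genes of these pathways were taken from lists that do not overlap the 49. Of 79 listed, 68 reached 1 FPKM in at least 1 library, and by limma 18 fell, 8 rose and 42 did not pass. Of all genes 15.2% fell and 11.8% rose, so the share that rose was near that of all genes. The 15 other glycolysis genes tested had 5 that fell and 4 that rose. Bpgm, which makes the red cell's regulator of oxygen release from haemoglobin, rose by 2.08 ± 0.38, from 33.8 FPKM to 109.7, 185 and 153 FPKM. The insulin-responsive glucose transporter Slc2a4 went from 1.52 FPKM to 5.33, 9.49 and 11.3 FPKM. The gluconeogenic enzyme Fbp1, in contrast, fell by 1.84 ± 0.12, from 5.60 FPKM to 1.06, 0.780 and 0.715 FPKM. By limma, the Benjamini-Hochberg adjusted p was 0.0025 for Bpgm, 0.0060 for Slc2a4 and 0.0010 for Fbp1.

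Of 25 other pyruvate and TCA genes, 6 fell, 2 rose and 17 did not pass, where 15.2% of all genes fell and 11.8% rose. Pyruvate carboxylase, Pcx, which refills the cycle, rose by 1.41 ± 0.32, from 3.05 FPKM to 7.41, 10.5 and 11.9 FPKM (limma adjusted p = 0.0063). The aspartate aminotransferases Got1 and Got2 fell by 0.88 ± 0.27 and 0.95 ± 0.13 (limma adjusted p = 0.0255 and 0.0124). Over the 24 of them reaching 1 FPKM in the pair compared, the median change was -0.42 at 48 h, -0.32 at 72 h and -0.26 at 96 h. None of the 5 other pentose phosphate genes tested passed, and Rpe, H6pd and Prps2 had mean changes of 0.24, -0.21 and -0.15.

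Of 23 other oxygen sensing genes and Hif targets tested, 7 fell, 2 rose and 14 did not pass, where 15.2% of all genes fell and 11.8% rose. Ddit4, an inhibitor of mTORC1 induced by stress and hypoxia, fell by 2.92 ± 0.64, from 142 FPKM to 27.7, 19.0 and 10.9 FPKM. Haem oxygenase, Hmox1, fell from 252 FPKM to 73.9, 95.3 and 88.5 FPKM, a mean change of -1.55 ± 0.19. The rises were the transferrin receptor Tfrc, at 56.0 FPKM on and 209, 288 and 289.6 FPKM off, and Bnip3l, at 47.8 FPKM on and 78.0, 116 and 109 FPKM off. Both are also used by maturing red cell precursors, whose markers were higher in the same libraries, and their part in these rises was not tested. With limma, the Benjamini-Hochberg adjusted p was 0.0061 for Ddit4, 0.0027 for Hmox1, 0.0016 for Tfrc and 0.020 for Bnip3l.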

How the data were processed

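The authors deposited FPKM values for 23235 genes in 4 tables, 3 of which pair the on library with 1 off library and were used here. TopHat2 2.0.4, Cuffdiff and genome build mm9 are named per the submitters' processing notes; which annotation and strandedness were used is not given in the sources used here. Columns for 0 h were read as the library with NRASG12V on. They matched between the 3 tables up to 1 factor each (99.9% of values within 0.1%), and levels are printed on the common scale this gives, while changes were computed within each table; for the 49 genes the 2 ways differ by at most 0.012 log2. FPKM hold no read counts, so depth is unknown, without counting intervals. At 48 h, 59.5% of 1470 low values stepped in small whole-number ratios with 1.15 times as many reads per FPKM as the on library; the shares of 24.1% and 13.5% at 72 h and 96 h were too low to read a depth from.

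limma 3.58.1 (statmod 1.5.0, R 4.3.3) was run on log2(FPKM + 1), with eBayes trend and robust settings, over genes reaching 1 FPKM in at least 1 library. It was also run on simulated data that gave the on library the spread of the off libraries, so that assumption was not checked. The members, gene lists and tests were chosen with earlier results of these data known. All 49 members are described; other pathway genes are named by rule, the 3 with the largest mean change per list among those reaching 5 FPKM and changed the same way at all times, and Bnip3l was added after its values were seen to complete a count. 83 of 84 cell type and handling markers matched a row. Of the 9 measured handling and heat shock genes 3 fell (Fos, Jun and Junb) and 2 rose (Dnajb1 and Hsph1), where 15.2% of all genes fell and 11.8% rose. Fos went from 8.15 FPKM on to 1.72, 1.25 and 1.07 FPKM at 48 h, 72 h and 96 h. Hsph1 went from 10.1 FPKM to 45.7, 33.3 and 32.9 FPKM. Alternatives were other pseudocounts, filters, scalings and fold limits, eBayes without trend or robust settings, and leaving out each off library.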

Additional observations from a re-analysis of the deposited data

Results flagged for a closer look

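The direction of 4 of the 49 genes differed between times; each time is 1 library, and the difference was not tested. Pfkfb4 stood at 0.51, 0.22 and -0.30 on the log2 scale at 48 h, 72 h and 96 h, Pdk1 at -0.38, 0.072 and 0.26, Cs at -0.27, -0.15 and 0.073, and Sdha at -0.13, 0.0078 and 0.14.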

How the results depend on the processing

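Each off time is 1 library, the on library has no replicate, and depth beyond FPKM is unknown. Setting the median change of expressed genes to 0 shifted all changes up by 0.15, 0.09 and 0.07 at 48 h, 72 h and 96 h. Removing the globin genes and rescaling moved the median change of expressed genes up by 0.19, 0.20 and 0.16, and single genes or groups moved by other amounts. Among all genes called at 48 h, 49.2% were lower, 32.8% with the median at 0 and 30.1% without globin genes; at 72 h these were 46.6%, 37.3% and 27.2%, and at 96 h 52.5%, 44.9% and 36.6%. Without globin genes the members at least 2-fold lower at 48 h numbered 7 in place of 12, and the glycolysis medians became -0.69, -0.85 and -0.99 and the TCA cycle medians -0.38, -0.31 and -0.087 in order of time. Those of the pentose phosphate genes were 0.018, which reverses the sign, -0.13 and -0.22, and those of oxygen sensing at 48 h and 72 h -0.51 and -0.41. The common rescaling of each off library accounts for these by construction. With the median at 0, the 48 h medians were -0.75 for glycolysis and -0.044 for pentose phosphate. A pseudocount of 5 FPKM gave -0.71 for oxygen sensing at 96 h. At 1.5-fold, 22, 23 and 25 of the 49 members were lower at the 3 times, beside 17.6%, 18.3% and 19.8% of all genes. At that limit 5 were higher at 48 h and 5 at 96 h, beside 12.2% and 15.9% of all genes. With 1 off library left out, the error of limma rested on the gap between the remaining off libraries, pooled across genes. That error differed between these fits, so their losses and gains cannot be assigned to the library left out. Leaving out 1 off library left 17 to 26 members lower and 3 to 5 higher by limma. Of all genes, 19.2% were lower without the 48 h library, 10.2% without 72 h and 18.4% without 96 h. The shares of all genes higher were 15.7%, 9.37% and 12.9% in that order. Without the 72 h library Slc2a3, Hk1, Ldhb, Pgls and Mdh1 no longer passed; without the 48 h or 96 h library no member was lost and 8 or 5 were gained. Without a filter on low values 5 members were lost. These were Pkm2 (limma, Benjamini-Hochberg adjusted p = 0.053), Slc2a3 (0.057), Hif1a (0.063), Mdh1 (0.065) and Ldhb (0.086). In that fit 7.65% of all genes were lower and 5.57% higher. Setting the median to 0 lost 3, Hif1a (0.054), Ldhb (0.082) and Mdh1 (0.055). Using limma without the trend and robust settings lost 1, Ldhb (0.052). No member called by limma changed direction under these alternatives. No paired analysis was possible because each group holds 1 library.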
